A study of Mus musculus with 14 samples.

Results

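The comparison of differentiated with undifferentiated mouse neural stem cells (NSC) at its end point rests on 6 of the 14 RNA-seq libraries of the series, chosen by their titles. The day 8 group holds 3 libraries of cells after 8 days of differentiation, and the undifferentiated group holds 3 libraries of cells that were not differentiated. Within each group 1 library was made under a control condition that the labels call NC, 1 with naloxone, which blocks opioid receptors, and 1 with DAMGO, a peptide that activates the mu opioid receptor. All 6 came from OG2 cells at passage 8. OG2 mice carry a reporter driven by regulatory sequence of Pou5f1. The differentiation medium is not given in the sources used here. Nothing in the labels says that the libraries of a group came from separate cultures or animals. The p-values and standard errors measure the spread left in a model of 12 libraries, which adds those of the stages in between. They do not measure the spread within the groups compared alone. That model spread may be technical, and drug effects that vary by stage add to it. Values of 3 libraries are given throughout in the order NC, naloxone, DAMGO.

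NSC divide in culture and can give rise to astrocytes, oligodendrocytes and neurons. As they leave the dividing state they exchange transcription factors, which set the expression of other genes, and with them the proteins by which a cell meets its surroundings: receptors that read signals, carriers and channels that move solutes and ions, and proteins released into the matrix or medium. Genes were placed in 5 such classes and 54 families by symbol. Of 2957 genes in the classes, 1426 passed the filter on low counts and were tested, among 13144 of all 29713 genes in the files.

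A gene was called where the adjusted p of edgeR's quasi-likelihood test was under 0.05, with the treatment as a block. By this rule 80.1% of all genes tested were called, 41.6% as higher and 38.5% as lower at day 8. A second rule also asked for a 4-fold change and called 23.0% of all genes, 11.2% as higher and 11.8% as lower. The 3 values of each group did not overlap for 83.7% of genes. With so wide a background a call alone says little about a class, and sizes and levels are therefore given for each gene. Library totals ran from 4913473 to 9070508 rounded counts. The undifferentiated and day 8 libraries lay at opposite ends of a first principal component that held 63.2% of the variance. Across genes, the log2 difference of each day 8 library from the mean of the 3 undifferentiated libraries correlated with the GC content of the gene. The r was 0.34 for the NC, 0.418 for the naloxone and 0.338 for the DAMGO library of day 8. These values share 1 baseline, genes are not independent, and this is a description. The part of this trend in the results was examined by a fit in which a trend on GC content and transcript length was removed from each library. Of 224 genes named by rule, 93 moved by over 1.5-fold in that fit, and for each of those described below its value is given as the trend-removed value. The median log2 change over all genes was 0.05, and it was -0.18 with scaling by TPM and -0.09 with the trend removed, so that small changes are best read against these medians.

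The identity of the cells was checked on marker genes. Among 8 astrocyte markers 7 were higher at day 8, and their summed level was 15839 to 17584 CPM (TMM-scaled counts relative to library size) at day 8 and 1193 to 1243 CPM in undifferentiated cells. Gfap, the intermediate filament gene of astrocytes, had 8438, 9036 and 8946 CPM at day 8, against 4.07, 0.694 and 2.29 CPM in undifferentiated cells. Slc1a2, the other main glutamate carrier gene of astrocytes beside Slc1a3, was not called. Markers of other types moved as well. The oligodendrocyte list had 4 of 4 tested genes higher, with a summed level of 404 to 439 CPM at day 8 and 89.2 to 93 CPM in undifferentiated cells, while Mog and Mobp stayed below 1 CPM in every library. Most of both sums was Cnp, with 319, 363 and 319 CPM at day 8 and 82.5, 82.1 and 87.2 CPM in undifferentiated cells. The neuron list split, with 4 genes higher and 3 lower of 8. Of the stem cell markers 4 of 6 were higher and 2, Nes and Fabp7, were lower. The list for pericytes and fibroblasts had 2 of 8 genes tested, and its sum was 125 to 151 CPM at day 8 and 2.44 to 7.4 CPM in undifferentiated cells. Of 5 ependymal markers 2 were tested and both were higher, and the list summed to 208 to 260 CPM at day 8 and 5.08 to 7.58 CPM in undifferentiated cells, with Tmem212 at no count at day 8. Most of that day 8 sum was Foxj1, with 229, 252 and 200 CPM. Rsph1 had 4.51, 5.8 and 6.07 CPM at day 8, and Ccdc153 and Dnah11 reached at most 1.07 CPM. The microglial genes Cx3cr1 and Tmem119 and the endothelial genes Cldn5 and Cdh5 had no count at day 8. The oligodendrocyte precursor list split, with Pdgfra, Sox10 and Gpr17 higher and Cspg4, Olig1 and Olig2 lower of 6, and its sum was 1936 to 2067 CPM at day 8 and 2672 to 2868 CPM in undifferentiated cells. Most markers of astrocytes and some of oligodendrocytes and ependyma were thus higher in the same libraries, and the ependymal sum rests mostly on 1 gene. In bulk RNA fewer cells of a type and less RNA per cell cannot be told apart.

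The sharpest shared movement among transcription factors was in the E2F family, whose members switch genes of DNA replication on or off as cells enter S phase. Of 10 tested members 8 fell and none was called higher, or 9 and 1 with the trend removed, and 4 fell at least 4-fold. The promoters of several E2F genes are known to carry E2F sites themselves. RefSeq promoter windows on GRCm38.p6, 250 bases before to 50 after the start of transcription, were matched to 8 of the members by symbol, leaving E2f4 and E2f5. They were searched on both strands for TTTCCCGC, TTTGGCGC, TTTCGCGC and TTTGCCGC, common spellings of the site. At least 1 window held a match for 4 of the 8 genes. Of these 8, E2f2, E2f3, Tfdp1 and Tfdp2 have more than 1 window each. Over all 32851 windows listed, 2.26% held a match. That share counts windows and not genes, so it is no background rate for the 4 of 8 genes. Such a match is of letters only and shows no binding. E2f1 and E2f8 fell too, and the 1 window listed for each held no match. Whether these windows lie at the main start of the gene was not checked, so sites elsewhere may have been missed. Tfdp1, a dimer partner of the E2F proteins, fell with a match. The windows of E2f2, E2f3 and E2f7 are printed as those of the E2F genes proper with a match, and each shows its 1 match in capitals.
E2f2 promoter window, chr4:136172024-136172323, plus strand: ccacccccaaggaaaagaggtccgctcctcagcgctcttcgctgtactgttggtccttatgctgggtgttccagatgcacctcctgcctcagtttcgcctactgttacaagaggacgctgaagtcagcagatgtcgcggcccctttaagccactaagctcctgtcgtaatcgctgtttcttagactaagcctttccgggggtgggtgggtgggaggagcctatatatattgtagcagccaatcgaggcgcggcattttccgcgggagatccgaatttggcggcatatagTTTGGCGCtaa
E2f3 promoter window, chr13:29986014-29986313, minus strand: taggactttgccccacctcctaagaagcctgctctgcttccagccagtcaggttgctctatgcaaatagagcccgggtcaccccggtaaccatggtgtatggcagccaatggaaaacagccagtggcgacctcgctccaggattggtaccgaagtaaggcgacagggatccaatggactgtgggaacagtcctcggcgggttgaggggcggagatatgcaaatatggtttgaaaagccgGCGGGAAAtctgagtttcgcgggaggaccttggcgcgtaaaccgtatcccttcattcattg
E2f7 promoter window, chr10:110745189-110745488, plus strand: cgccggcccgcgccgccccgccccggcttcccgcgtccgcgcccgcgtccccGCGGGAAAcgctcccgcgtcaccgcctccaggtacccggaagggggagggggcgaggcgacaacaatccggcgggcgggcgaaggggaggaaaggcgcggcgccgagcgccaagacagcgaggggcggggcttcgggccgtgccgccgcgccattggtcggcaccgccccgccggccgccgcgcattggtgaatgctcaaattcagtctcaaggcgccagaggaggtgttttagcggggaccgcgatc

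E2f7, an atypical repressor of the family, had 0.188, 0.237 and 0.867 CPM at day 8, against 35, 35.9 and 38.6 CPM in undifferentiated cells. Its log2 change was -6.40 ± 0.26 (SE; adjusted p = 5.72e-09, edgeR). Every day 8 library was below 1 CPM, and without the DAMGO library of day 8 the change was -7.20. E2f8, its partner repressor, had 0.752, 0.711 and 0.867 CPM at day 8 and 42.9, 42.9 and 43.5 CPM in undifferentiated cells (-5.77 ± 0.22). E2f2, an activator, had 0.564, 0.711 and 0.694 CPM at day 8 and 32.3, 29.9 and 26.1 CPM in undifferentiated cells (-5.43 ± 0.26). The activator E2f3 fell less, by 1.13 ± 0.10 on the log2 scale. Part of these 3 falls was seen by day 2, where E2f7 averaged 4.21 CPM, E2f8 9.23 CPM and E2f2 3.86 CPM. Foxm1, a forkhead factor for mitotic genes, had 6.96, 6.16 and 5.55 CPM at day 8 and 158, 167 and 173 CPM in undifferentiated cells. Mxd3, a MAX-binding factor of dividing cells, had 0.376, 0.355 and 0.867 CPM at day 8 and 32.1, 32.6 and 31.5 CPM in undifferentiated cells. Both fell, Foxm1 by 4.75 ± 0.15 and Mxd3 by 5.91 ± 0.24 on the log2 scale (trend-removed value of Mxd3 -6.67).

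Over the whole class the transcription factors stood close to the background: of 410 tested among 715 in the files, 160 were higher (39%) and 168 lower (41%), and 50 rose and 52 fell at least 4-fold. With the trend removed the split was 124 higher and 209 lower. Their summed TPM (transcript abundance per length) was 12992, 13675 and 12779 at day 8 and 15116, 15265 and 15648 in undifferentiated cells. Families within the class differed. In the KLF and SP family of zinc finger factors 4 of 19 were higher and 11 lower, or 2 and 15 with the trend removed. Klf10, a gene induced by TGF-beta, fell to 8.65, 15.6 and 10.4 CPM at day 8, against 220, 220 and 196 CPM in undifferentiated cells. Klf15 rose, by 1.33 ± 0.13. In the ETS family 3 of 15 were higher and 11 lower, or 1 and 11 with TPM scaling. Etv5, a target of receptor tyrosine kinase signalling, had 16.2, 19.5 and 14.7 CPM at day 8 and 426, 462 and 450 CPM in undifferentiated cells (-4.73 ± 0.10; adjusted p = 1.34e-10, edgeR). Of 37 ZBTB factors 6 were higher and 18 lower, none of them 4-fold higher. The homeobox family had 21 of 65 higher and 32 lower. A fall as large as that of E2f7 was seen for Creb5, a bZIP factor with 0.752, 0.355 and 0.173 CPM at day 8 and 36.8, 37.8 and 35.2 CPM in undifferentiated cells (-6.40 ± 0.32).

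Other families held more rises. Of 23 factors of the neural bHLH, HES and Id family 13 were higher and 7 lower, and 11 rose at least 4-fold. The Id genes encode inhibitors that bind bHLH factors and keep them off DNA. Id1 had 116, 120 and 87.6 CPM at day 8 and 6.1, 7.64 and 5.99 CPM in undifferentiated cells (log2 change 4.03 ± 0.11, trend-removed value 3.30). Id1 stood at 18.1 CPM at day 2 and 5.87 CPM at day 4, so most of its rise was seen only at day 8. Id3 dipped before it rose: it averaged 20.5 CPM at day 4, and had 314, 393 and 299 CPM at day 8, against 79.9, 85 and 89.3 CPM in undifferentiated cells (log2 change 1.98, trend-removed value 1.12). Of 33 nuclear receptors 17 were higher and 7 lower, or 11 and 10 with the trend removed. Thra, a thyroid hormone receptor, had 752, 819 and 701 CPM at day 8 and 144, 143 and 163 CPM in undifferentiated cells (2.34 ± 0.08, trend-removed value 1.55). Rorb, an orphan receptor of the ROR group, was called lower at -1.38, but its trend-removed value was -0.06 and it was no longer called. Of 14 STAT, IRF and NF-kappaB factors 10 were higher and 2 lower. Irf9, a factor of the interferon response, had 35.5, 37.9 and 34.9 CPM at day 8 and 7.52, 5.73 and 7.93 CPM in undifferentiated cells.

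Single factors went from near absence to a clear level. Prdm16, a zinc finger regulator of stem and fat cells, had 66.2, 72.2 and 61.2 CPM at day 8 and 0.61, 0.174 and 0.176 CPM in undifferentiated cells (7.67 ± 0.21; adjusted p = 4.49e-10, edgeR). Without the NC library of undifferentiated cells the change was 8.41. Prdm16 was already at 74.1 CPM at day 4. Tfcp2l1, a grainyhead-like factor, followed another course, with 0.768 CPM at day 4 and 52.5, 65.8 and 54.8 CPM at day 8, against 0.407, 0.694 and 0.176 CPM in undifferentiated cells. Foxj1, which drives the genes of motile cilia, had 229, 252 and 200 CPM at day 8 and 4.88, 5.9 and 6.17 CPM in undifferentiated cells (5.32 ± 0.14, trend-removed value 4.68). Smad9, a transducer of BMP signals, had 40.4, 45.8 and 39.7 CPM at day 8 and 2.44, 1.04 and 1.41 CPM in undifferentiated cells. Smad5, which has the same role, fell by 0.78 ± 0.09. Epas1, the HIF-2 alpha gene, had 112, 108 and 126 CPM at day 8 and 5.28, 6.25 and 9.34 CPM in undifferentiated cells. The stress-induced factor Atf3 had 28.4, 23.1 and 23.2 CPM at day 8 and 1.63, 1.39 and 1.59 CPM in undifferentiated cells, and averaged 0.102 CPM at day 2. The circadian factor Dbp had 134, 136 and 136 CPM at day 8 and 11.8, 11.8 and 8.63 CPM in undifferentiated cells (3.66 ± 0.12, trend-removed value 2.93).

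By level, the most abundant transcription factor genes at day 8 were not those that changed most. Olig1, a factor of the oligodendrocyte lineage, ranked first in both groups, with a mean of 693 ± 14.8 TPM at day 8 and 1667 ± 73.7 TPM in undifferentiated cells (SD, n = 3 each; log2 change -1.05, trend-removed value -1.72). Thra came next at 613 ± 56.7 TPM at day 8, where undifferentiated cells had 140 ± 10.2 TPM. Id3 and Id2 followed at day 8 with 517 and 496 TPM, against 150 and 91.1 TPM in undifferentiated cells. The order of Id3 and Id2 at day 8 was not larger than the spread of their libraries.

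**Figure D1:**
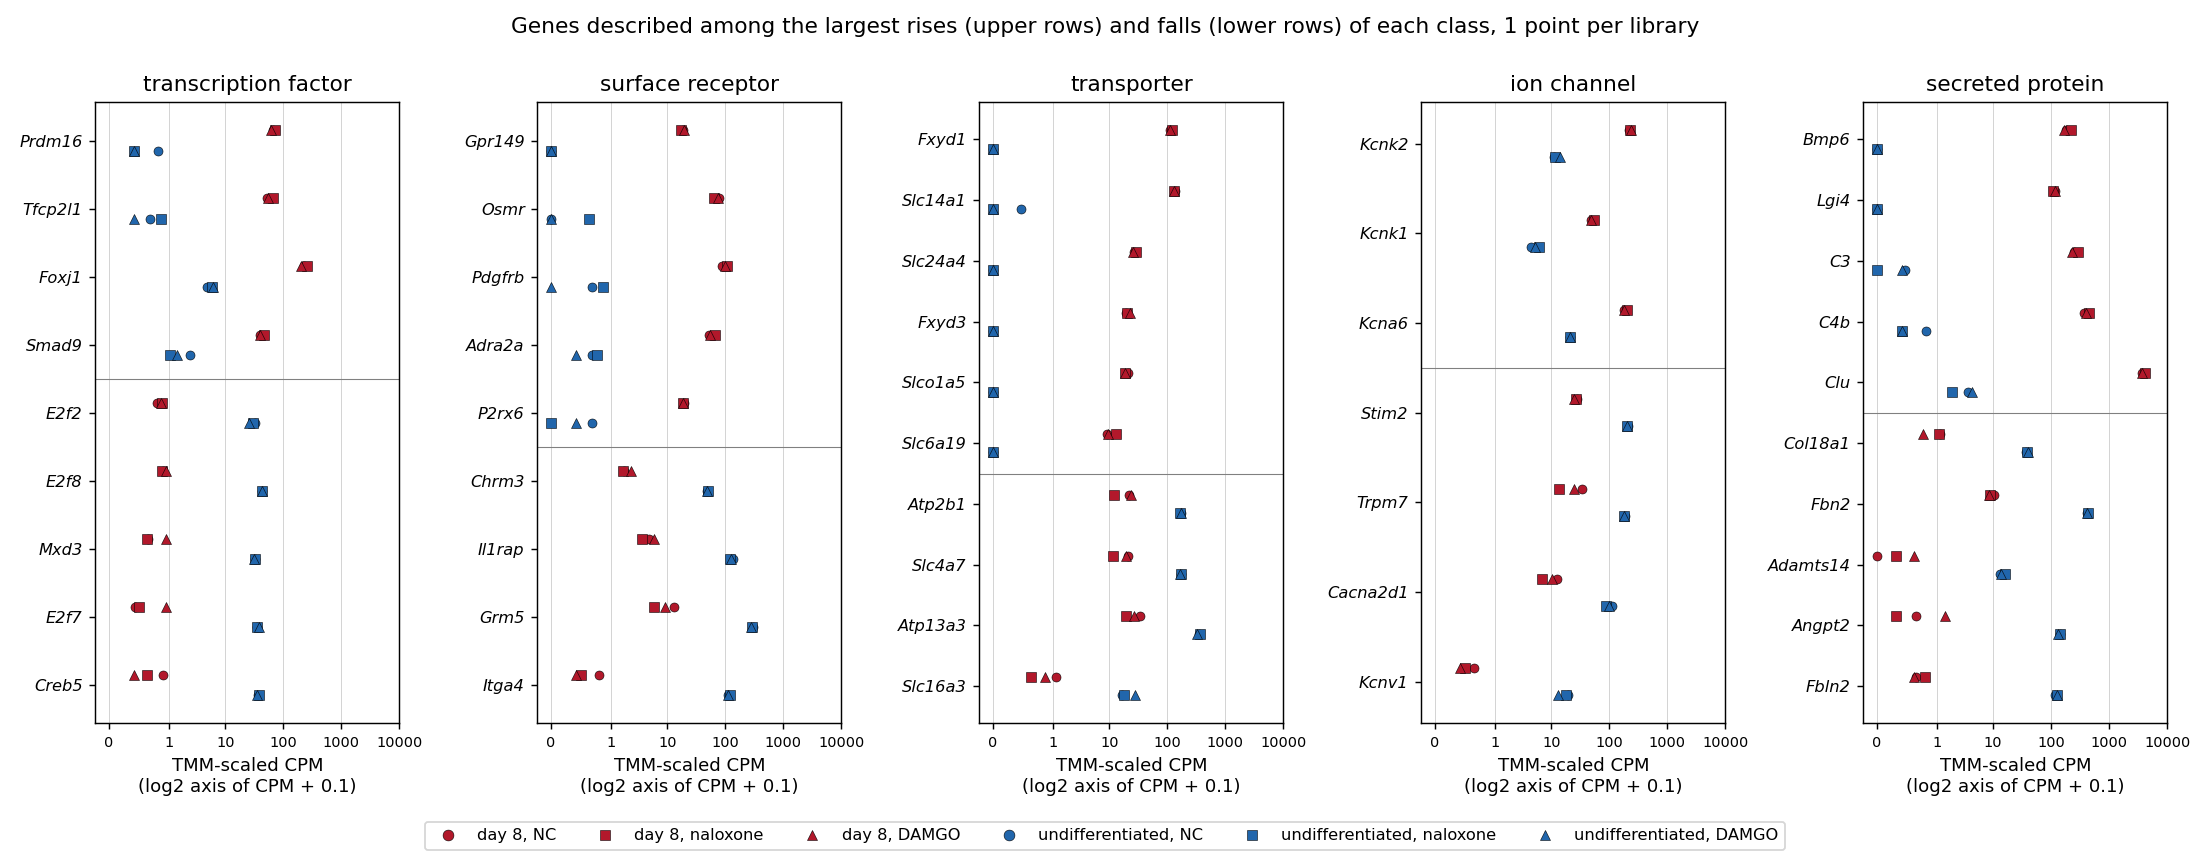
Levels in TMM-scaled CPM (horizontal axis, log2 of CPM + 0.1) of the genes described in the text among the 6 largest rises and 6 largest falls of each of the 5 classes, with 1 point per library, day 8 above undifferentiated for each gene and the symbol giving the treatment. In every gene shown the 3 day 8 points lie apart from the 3 undifferentiated points. This largely follows from the choice of the largest called changes, and the groups did not overlap for 83.7% of all genes tested. Of the 6 transporters shown as rises 5 have no count in undifferentiated cells.

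Surface receptors rose more often than they fell. Of 306 tested among 716 in the files, 159 were higher (52%) and 104 lower (34%), and 75 rose at least 4-fold (24.5%) where 40 fell (13.1%). The summed TPM of the class was 11965 ± 369 at day 8 and 8522 ± 13.9 in undifferentiated cells. The median log2 change was 0.47, or 0.24 with TPM scaling. The most abundant receptor gene at day 8 was Ntrk2, which encodes the receptor for BDNF, at 1243 TPM, against 95.3 TPM in undifferentiated cells. In CPM it had 5038, 5197 and 5293 at day 8 and 343, 333 and 361 in undifferentiated cells (3.90 ± 0.06; adjusted p = 4.71e-11, edgeR). Next came Ddr1, a collagen receptor kinase, at 554 TPM at day 8 and 130 TPM in undifferentiated cells (log2 change 2.06, trend-removed value 1.41).

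The GPCR families carried many of the 4-fold rises. Among receptors for nucleotides and orphan receptors 18 of 26 were higher and 4 lower, with 13 at least 4-fold higher. Gpr149, an orphan receptor, had 18.8, 17.2 and 19.8 CPM at day 8 and no count in undifferentiated cells, at least 100-fold higher. This bound, like the others below, sets the missing group to 3 counts in its libraries together. Its level was higher still at day 4, with a mean of 46 CPM. Lgr5, a receptor for R-spondins known from stem cells of several tissues, fell to 3.2, 2.96 and 3.64 CPM at day 8, against 31.9, 33.8 and 32.8 CPM in undifferentiated cells. Among peptide, chemokine and Frizzled receptors 21 of 31 were higher and 7 lower. Cxcr4, the receptor for CXCL12, had 118, 129 and 115 CPM at day 8 and 1.22, 1.91 and 2.47 CPM in undifferentiated cells (5.98 ± 0.15). Ntsr2, a neurotensin receptor found on astrocytes, had 159, 154 and 163 CPM at day 8 and 2.85, 1.91 and 2.29 CPM in undifferentiated cells (6.08 ± 0.12, trend-removed value 5.32). Ednrb, the endothelin B receptor, averaged 2512 CPM at day 2 and 2128 CPM at day 4, and had 959, 671 and 1007 CPM at day 8, against 284, 284 and 283 CPM in undifferentiated cells (log2 change 1.61, trend-removed value 2.54).

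Receptors for amines, amino acids and lipids moved both ways, 12 higher and 9 lower of 23. Adra2a, an adrenergic receptor, had 53.2, 66.1 and 54.8 CPM at day 8 and 0.407, 0.521 and 0.176 CPM in undifferentiated cells (7.23 ± 0.23). Against it, the muscarinic receptor gene Chrm3 fell to 1.69, 1.66 and 2.26 CPM at day 8, against 49, 50 and 48.3 CPM in undifferentiated cells. Grm5, a metabotropic glutamate receptor, had 13, 5.92 and 9.02 CPM at day 8 and 303, 295 and 277 CPM in undifferentiated cells (-5.05 ± 0.33). The day 8 values of Grm5 spread over 2-fold, with naloxone lowest. Of 28 ionotropic receptors 10 were higher and 14 lower. P2rx6, an ATP-gated channel subunit, had 19.2, 18.7 and 18.9 CPM at day 8 and 0.407, 0 and 0.176 CPM in undifferentiated cells, a ratio of 103 with a 95% counting interval of 35 to 502, which covers counting error only. The AMPA receptor genes Gria1 and Gria3 went opposite ways, and the other AMPA receptor genes are not described here. Gria1 had 23.5, 25.1 and 23.2 CPM at day 8 and 2.44, 1.04 and 0.881 CPM in undifferentiated cells (4.07 ± 0.25; 3.41 with TPM scaling, and 2.94 with the passage 8 library of the series added as an NC library), and Gria3 fell to 4.89, 1.66 and 4.68 CPM at day 8, against 78.3, 75.7 and 73.5 CPM in undifferentiated cells (-4.43 ± 0.35, trend-removed value -3.31).

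Receptor tyrosine kinases, the receptors of most growth factors, were higher for 21 of 36 and lower for 9. Met, the receptor for HGF, had 27.6, 17.8 and 32.3 CPM at day 8 and 0.407, 0.174 and 0.352 CPM in undifferentiated cells (6.31 ± 0.31). Its mean was 0.492 CPM at day 4, so the rise was seen only at day 8. Pdgfrb, a PDGF receptor that is also a pericyte marker, had 88.4, 108 and 97.5 CPM at day 8 and 0.407, 0.694 and 0 CPM in undifferentiated cells, and averaged 103 CPM at day 4. Most of the day 8 sum of the pericyte and fibroblast list given above was Pdgfrb itself, and of the others only Acta2 passed the filter, with 31.6, 41 and 28.1 CPM at day 8 and 0.203, 2.26 and 6.17 CPM in undifferentiated cells. Rgs5, Dcn, Lum and Kcnj8 stayed below 1 CPM and Col1a1 and Col1a2 below 2 CPM in all 6 libraries. Egfr, the receptor for EGF, fell to 131, 124 and 136 CPM at day 8, against 635, 614 and 606 CPM in undifferentiated cells (-2.25 ± 0.14; adjusted p = 1.85e-07, edgeR).

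Cytokine and related receptors were higher for 23 of 49 and lower for 15, or 20 and 21 with the trend removed, where the median also changed sign. Osmr, the receptor subunit for oncostatin M, had 78.4, 65.1 and 76.2 CPM at day 8 and 0, 0.347 and 0 CPM in undifferentiated cells, a ratio of 589 (95% counting interval 163 to 4867; log2 change 8.99, trend-removed value 9.64, and 8.07 with TPM scaling). The 2 subunits of the IL-1 receptor went opposite ways. Il1r1, which binds the ligand, had 27.3, 31.1 and 29.7 CPM at day 8 and 0.407, 0.868 and 0 CPM in undifferentiated cells (6.04 ± 0.36; 7.08 without the naloxone and 5.44 without the DAMGO library of undifferentiated cells). Il1rap, the accessory subunit, had 4.89, 3.67 and 5.9 CPM at day 8 and 134, 121 and 125 CPM in undifferentiated cells (-4.73 ± 0.19, trend-removed value -3.52). Lipoprotein receptors split as well: Lrp2, also called megalin, rose by 4.33 ± 0.21 and Sorl1 by 3.92 ± 0.09, while Vldlr fell to 11.3, 9.83 and 13.7 CPM at day 8, against 180, 162 and 168 CPM in undifferentiated cells.

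Integrins, which anchor cells to the matrix, were higher for 4 of 14 and lower for 8. Itga7, a laminin-binding subunit, had 185, 219 and 185 CPM at day 8 and 8.54, 10.6 and 12.2 CPM in undifferentiated cells (4.23 ± 0.12), and Itga3, which also binds laminins, had 26.9, 32.2 and 28.1 CPM at day 8 and 0.203, 0.174 and 1.06 CPM in undifferentiated cells. Itga5, the fibronectin receptor subunit, fell to 1.5, 3.2 and 2.08 CPM at day 8, against 13.6, 16.8 and 14.8 CPM in undifferentiated cells. Itga4, which binds fibronectin and VCAM1, had 0.564, 0.237 and 0.173 CPM at day 8 and 112, 121 and 111 CPM in undifferentiated cells (-8.45 ± 0.38, trend-removed value -7.74), the largest fall among the tested genes of the class under the naming rule. Among receptor phosphatases Ptprz1, a receptor of glial progenitors, fell to 700, 407 and 637 CPM at day 8, against 2286, 2117 and 2171 CPM in undifferentiated cells (-1.95 ± 0.24). Its trend-removed value was -0.12 and it was no longer called. Whether the trend is technical or part of the change between the stages was not tested. Ptprf rose by 2.43 ± 0.08 (trend-removed value 1.84).

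**Figure D2:**
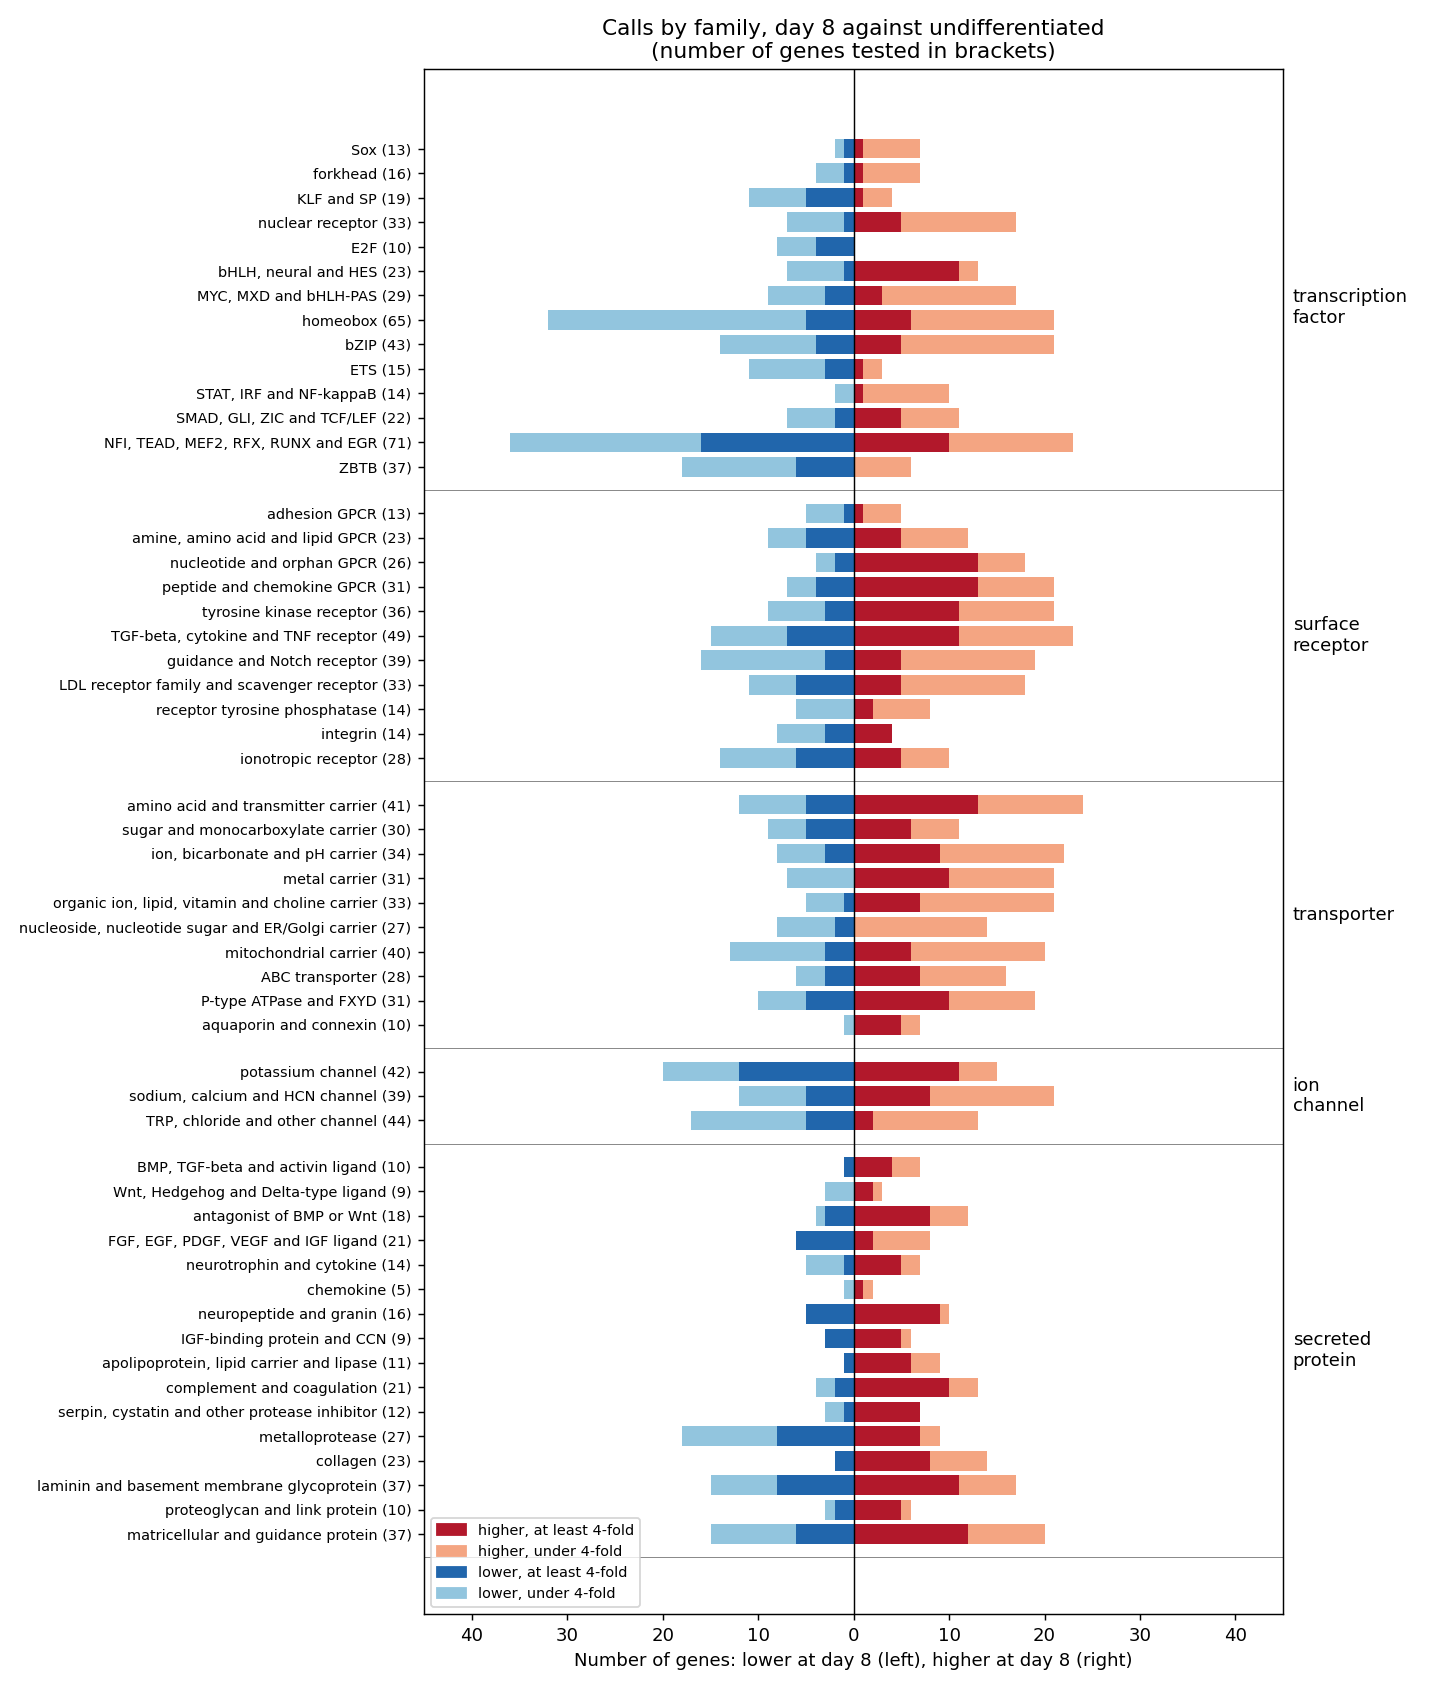
Number of genes per family (horizontal axis) called lower (left, blue) and higher (right, red) at day 8 against undifferentiated, with dark bars for changes of at least 4-fold and the number tested in brackets. The E2F family has no bar to the right, and metal carriers, with 21 higher and 7 lower, have no dark bar to the left.

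Transporters leaned most strongly upward by count. Of 305 tested among 527 in the files, 175 were higher (57.4%) and 79 lower (25.9%), and 73 rose at least 4-fold (23.9%) where 27 fell (8.85%). The median log2 change was 0.63, or 0.35 with TPM scaling and 0.40 with the trend removed. The summed TPM was 19523 ± 405 at day 8 and 11956 ± 54.7 in undifferentiated cells. The most abundant transporter genes at day 8 were Slc1a3, the glutamate carrier GLAST, at 1531 TPM, Atp1b2, a beta subunit of the sodium pump, at 1269 TPM, and Gja1, which encodes the gap junction protein connexin 43, at 1230 TPM. Undifferentiated cells had 454 TPM of Slc1a3, 117 TPM of Atp1b2 and 11.1 TPM of Gja1. The first place in undifferentiated cells among these 4 genes belonged to Slc25a5, the mitochondrial ADP/ATP carrier, with 1038 TPM at day 8 and 1956 TPM in undifferentiated cells.

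Within the class, carriers of amino acids and transmitters were higher for 24 of 41 and lower for 12, or 20 and 16 with the trend removed. Slc1a3 had 3808, 3147 and 4143 CPM at day 8 and 907, 930 and 918 CPM in undifferentiated cells (2.01 ± 0.10). Slc6a19, a carrier of neutral amino acids best known from gut and kidney, had 9.21, 13.3 and 9.71 CPM at day 8 and no count in undifferentiated cells, at least 60.6-fold higher, and it averaged 0.132 CPM at day 4. Slc7a1, a carrier of arginine and lysine, fell to 19.9, 27.6 and 22.9 CPM at day 8, against 196, 188 and 188 CPM in undifferentiated cells (-3.02 ± 0.13), and Slc38a2, a glutamine and alanine carrier, fell by 2.19 ± 0.11 (trend-removed value -1.24).

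Ion, bicarbonate and pH carriers were higher for 22 of 34 and lower for 8, or 19 and 12 with TPM scaling. Slc24a4, a potassium-dependent sodium-calcium exchanger, had 26.9, 29.1 and 25.8 CPM at day 8 and no count in undifferentiated cells, at least 150-fold higher. Slc4a7, a sodium bicarbonate carrier, fell to 21.4, 11.6 and 19.8 CPM at day 8, against 172, 175 and 166 CPM in undifferentiated cells (-3.33 ± 0.26, trend-removed value -2.48). Metal carriers were higher for 21 of 31 and lower for 7, or 24 and 4 with the trend removed, and 10 rose at least 4-fold while none fell that far. Slc39a12, a zinc importer of brain, had 346, 362 and 363 CPM at day 8 and 1.22, 2.43 and 2.29 CPM in undifferentiated cells (7.46 ± 0.15; adjusted p = 8.56e-11, edgeR; trend-removed value 8.42). Its mean at day 4 was 55 CPM. Nipal3, of a family of magnesium carriers, had 123, 141 and 118 CPM at day 8 and 4.27, 5.03 and 4.93 CPM in undifferentiated cells (4.74 ± 0.13, trend-removed value 4.07). The zinc importer Slc39a10 and the zinc exporter Slc30a4 fell by 1.64 and 1.71 on the log2 scale, with trend-removed values of -0.44 and -0.37.

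P-type ATPases and their FXYD regulators were higher for 19 of 31 and lower for 10. Atp1b2 had 1971, 2139 and 2184 CPM at day 8 and 157, 166 and 171 CPM in undifferentiated cells (3.67 ± 0.07). Its regulator genes came up beside it: Fxyd1, phospholemman, had 114, 121 and 114 CPM at day 8 and no count in undifferentiated cells, at least 638-fold higher. Fxyd3 had 19.2, 20.6 and 23.2 CPM at day 8 and no count in undifferentiated cells, at least 114-fold higher. Atp2b1, a calcium pump of the plasma membrane, fell to 22.2, 12.1 and 23.6 CPM at day 8, against 176, 168 and 175 CPM in undifferentiated cells (-3.22 ± 0.34, trend-removed value -2.44). Atp13a3, a polyamine carrier, had 33.5, 19.8 and 26.9 CPM at day 8 and 357, 363 and 328 CPM in undifferentiated cells (-3.76 ± 0.32, trend-removed value -2.60). In both Atp2b1 and Atp13a3 the naloxone library was the lowest at day 8, and it was also the library with the strongest correlation with GC content.

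Among 28 ABC transporters 16 were higher and 6 lower. Abca1, which loads cholesterol onto apolipoproteins, had 278, 208 and 269 CPM at day 8 and 11, 8.85 and 10 CPM in undifferentiated cells (4.66 ± 0.30). Its level at day 4 averaged 319 CPM. The neighbours Abca8a and Abca8b moved apart. Abca8a had 19.6, 13.3 and 16.1 CPM at day 8 and 0.203, 0.174 and 0 CPM in undifferentiated cells, a ratio of 129 (95% counting interval 35.5 to 1073; log2 change 6.82, trend-removed value 7.67). Abca8b had 2.63, 2.96 and 3.82 CPM at day 8 and 20.7, 20.7 and 25.9 CPM in undifferentiated cells (-2.83 ± 0.19, trend-removed value -1.76). These are related genes, and reads that they share were divided between them by RSEM.

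Carriers of organic ions, lipids, vitamins and choline were higher for 21 of 33 and lower for 5. Slc14a1, a urea carrier, had 137, 132 and 130 CPM at day 8 and 0.203, 0 and 0 CPM in undifferentiated cells, a ratio of 2169 (95% counting interval 389 to 85718). Slco1a5, a carrier of organic anions, had 21.4, 18.8 and 18.4 CPM at day 8 and no count in undifferentiated cells, at least 106-fold higher (trend-removed log2 change 10.81, against 9.87 without the removal, both fitted against 0 counts). It belongs to a cluster of close paralogues, so its reads may in part be those of a neighbour. Of 10 aquaporins, connexins and pannexins 7 were higher and 1 lower. Gja1 had 2248, 1914 and 2410 CPM at day 8 and 17.7, 17.2 and 16.2 CPM in undifferentiated cells (adjusted p = 4.71e-11, edgeR). The water channel gene Aqp4 differed between the day 8 libraries, at 766, 383 and 674 CPM, against 3.25, 2.95 and 2.11 CPM in undifferentiated cells.

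Carriers of sugars and monocarboxylates had no common direction, with 11 of 30 higher and 9 lower, and their median changed sign with TPM scaling and with the trend removed. Slc16a3, the lactate exporter of glycolytic cells, fell to 1.13, 0.355 and 0.694 CPM at day 8, against 16.9, 17.7 and 28 CPM in undifferentiated cells (-4.88 ± 0.35, trend-removed value -5.60, and -6.14 with TPM scaling). Slc16a9, of the same family, had 28.2, 29.7 and 29.3 CPM at day 8 and 0.61, 1.21 and 0.705 CPM in undifferentiated cells (5.06 ± 0.23; 3.84 with TPM scaling). Slc2a4, the insulin-responsive glucose carrier GLUT4, had 11.5, 12.7 and 12.8 CPM at day 8 and 0.203, 0 and 0.176 CPM in undifferentiated cells, a ratio of 101 (95% counting interval 27.8 to 842; log2 change 6.44, trend-removed value 5.76). Mitochondrial carriers were higher for 20 of 40 and lower for 13, and their summed TPM was 4260 at day 8 and 4251 in undifferentiated cells over the tested genes. Slc25a5 had 709, 613 and 703 CPM at day 8 and 1113, 1122 and 1029 CPM in undifferentiated cells (-0.69 ± 0.08), while Slc25a42, a carrier of coenzyme A, rose by 2.64 ± 0.14.

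Ion channels had no lean in either direction. Of 125 tested among 237 in the files, 49 were higher and 49 lower (39.2% each), and 21 rose and 22 fell at least 4-fold (16.8% and 17.6%). Their summed TPM was 1945 ± 64.5 at day 8 and 2258 ± 13.8 in undifferentiated cells. The most abundant were Cacng7, an auxiliary subunit of AMPA receptors, at 160 TPM at day 8 and 67.1 TPM in undifferentiated cells (log2 change 1.47, trend-removed value 0.76), and Kcnk2, the potassium leak channel TREK-1, at 138 TPM at day 8 and 9.12 TPM in undifferentiated cells. Tmem63b, a mechanosensitive channel, and Kcnip3, a calcium-binding channel regulator, came next and were not called, with log2 changes of -0.06 and -0.09; both were called lower with TPM scaling, at -0.50 and -0.30, and with the trend removed, at -0.85 and -0.70.

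Among 42 potassium channel genes 15 were higher and 20 lower. Kcnk2 had 222, 225 and 240 CPM at day 8 and 11.2, 11.6 and 14.3 CPM in undifferentiated cells (4.21 ± 0.11; adjusted p = 3.22e-10, edgeR), with 160 CPM on average at day 4. Kcnk1, another leak channel, had 48.9, 56 and 49.3 CPM at day 8 and 4.47, 6.25 and 5.29 CPM in undifferentiated cells, and it was at 6.39 CPM at day 4. Of these 2 leak channels only Kcnk2 was above its undifferentiated level by over 2-fold at day 4, and both were higher still at day 8. Kcna6, a voltage-gated channel, had 182, 204 and 181 CPM at day 8 and 21.5, 21 and 21 CPM in undifferentiated cells (3.16 ± 0.09), and its relative Kcna2 fell to 19.6, 12.1 and 18.2 CPM at day 8, against 115, 114 and 108 CPM in undifferentiated cells (-2.80 ± 0.28). Kcnv1, a silent modifier subunit, had 0.376, 0.237 and 0.173 CPM at day 8 and 19.3, 17.7 and 12.9 CPM in undifferentiated cells (-5.92 ± 0.45), the largest fall of the class under the naming rule.

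Sodium, calcium and HCN channels were higher for 21 of 39 and lower for 12. The pair of STIM genes, which sense calcium in the endoplasmic reticulum and open calcium channels at the surface, exchanged places. Stim1 had 87.6, 98.4 and 86.6 CPM at day 8 and 14.8, 13.9 and 16 CPM in undifferentiated cells (2.60 ± 0.10). Stim2 had 28, 26.5 and 25.2 CPM at day 8 and 209, 202 and 203 CPM in undifferentiated cells (-2.94 ± 0.14; adjusted p = 1.81e-08, edgeR). Per length, Stim1 was at 43.8 TPM and Stim2 at 13.7 TPM at day 8, where undifferentiated cells had 8.3 TPM of Stim1 and 143 TPM of Stim2. Cacna2d1, an auxiliary calcium channel subunit, fell to 12.4, 6.87 and 10.2 CPM at day 8, against 111, 89.6 and 100 CPM in undifferentiated cells (-3.39 ± 0.37, trend-removed value -1.93). In the group of TRP, chloride and other channels 13 of 44 were higher and 17 lower, or 8 and 19 with TPM scaling. Trpm7, a channel that is also a kinase, had 34.2, 13.4 and 24.8 CPM at day 8 and 186, 177 and 177 CPM in undifferentiated cells (-3.01 ± 0.44), and its trend-removed value was -1.13. Lrrc8a, the essential subunit of volume-regulated anion channels, had 108, 127 and 101 CPM at day 8 and 43.5, 50.3 and 49.2 CPM in undifferentiated cells (1.23 ± 0.11).

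Secreted proteins had the most 4-fold changes by share. Of 280 tested among 762 in the files, 150 were higher (53.6%) and 89 lower (31.8%), and 102 rose at least 4-fold (36.4%) where 49 fell (17.5%). The summed TPM of the class was 59120, 57842 and 55262 at day 8 and 11252, 11741 and 11623 in undifferentiated cells. A single gene made up most of it: Apoe, the lipid carrier of astrocytes, held 58.6%, 54.9% and 55.3% of the class at day 8 and 1.69%, 1.64% and 1.74% in undifferentiated cells. Without Apoe the class summed to 25085 ± 864 TPM at day 8 and 11344 ± 252 TPM in undifferentiated cells. Because TPM values of a library share 1 total, such a gene lowers the TPM of the others.

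**Figure D3:**
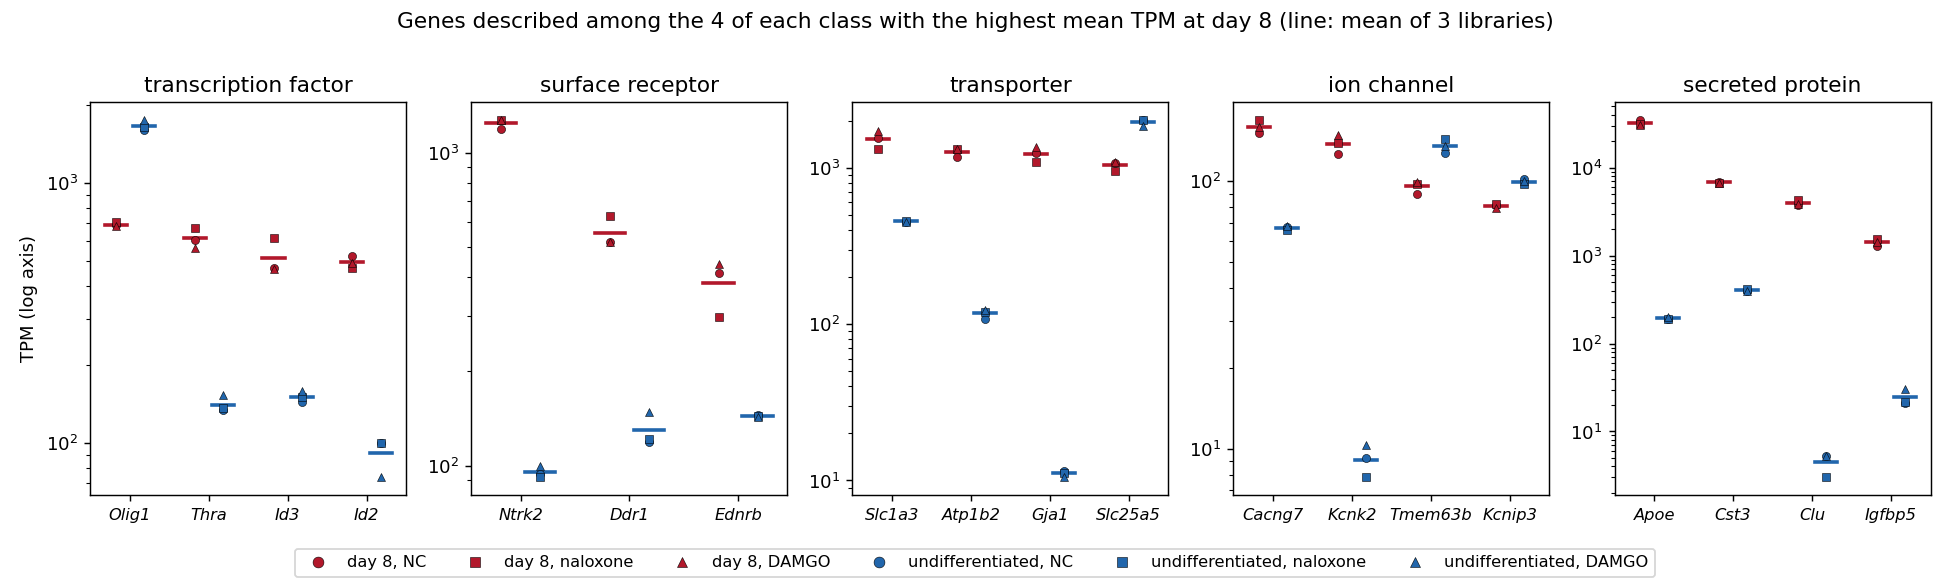
TPM (vertical log axis, with a scale of its own in each panel) of the genes described in the text among the 4 of each class with the highest mean at day 8, with 1 point per library, day 8 left of undifferentiated and lines at the means. Apoe stands at 32323 TPM at day 8 and 195 TPM in undifferentiated cells, and Olig1 and Slc25a5 are lower at day 8 than in undifferentiated cells, at 693 and 1038 TPM against 1667 and 1956 TPM.

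Of 11 apolipoproteins, lipid carriers and lipases 9 were higher and 1 lower, or 7 and 3 with the trend removed. Apoe had 16638, 15189 and 14777 CPM at day 8 and 88.2, 93.4 and 99.4 CPM in undifferentiated cells (7.38 ± 0.12, trend-removed value 6.50). Clu, which encodes the chaperone clusterin, had 3687, 4117 and 3651 CPM at day 8 and 3.66, 1.91 and 4.23 CPM in undifferentiated cells (10.19 ± 0.20, trend-removed value 9.45). Lpl, lipoprotein lipase, fell to 5.45, 3.08 and 2.95 CPM at day 8, against 15, 19.3 and 17.6 CPM in undifferentiated cells. Of 12 serpins, cystatins and other inhibitors 7 were higher and 3 lower. Cst3, cystatin C, had 2966, 2815 and 2831 CPM at day 8 and 142, 152 and 143 CPM in undifferentiated cells, and was at 1758 CPM by day 2 (log2 change 4.30, trend-removed value 3.34). Serpina3n, an inhibitor that marks reactive astrocytes, had 61.3, 67.3 and 73.9 CPM at day 8 and 0.61, 0 and 0.176 CPM in undifferentiated cells (7.99 ± 0.39; 9.38 without the NC and 7.36 without the naloxone library of undifferentiated cells), and only 1.16 CPM at day 4. It has close paralogues in mouse. The inhibitor gene Serpine2, at 1371 TPM at day 8 and 1403 TPM in undifferentiated cells, was among the most abundant of the class in both groups. Of 21 complement and coagulation genes 13 were higher and 4 lower. C4b had 362, 448 and 395 CPM at day 8 and 0.61, 0.174 and 0.176 CPM in undifferentiated cells (10.26 ± 0.20; adjusted p = 8.56e-11, edgeR; 11.03 without the NC library of undifferentiated cells). C3, the central component, had 247, 289 and 233 CPM at day 8 and 0.203, 0 and 0.176 CPM in undifferentiated cells, a ratio of 2135 (95% counting interval 591 to 17634). C4b averaged 37.6 CPM at day 4 where C3 averaged 0.526 CPM. C4b has a near-identical copy in mouse, so its level is uncertain.

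Signal proteins moved both ways. Of 10 ligands of the BMP, TGF-beta and activin group 7 were higher and 1 lower. Bmp6 had 184, 219 and 164 CPM at day 8 and no count in undifferentiated cells, at least 1052-fold higher, and Bmp7, a related ligand, had 13, 12.6 and 11.8 CPM at day 8 and 106, 110 and 100 CPM in undifferentiated cells (-3.08 ± 0.09, trend-removed value -3.70). Antagonists of BMP or Wnt were higher for 12 of 18 and lower for 4. Sfrp5, which binds Wnt proteins, had 21.1, 26.8 and 21.2 CPM at day 8 and 0.203, 0 and 0.176 CPM in undifferentiated cells, a ratio of 193 (95% counting interval 53 to 1596; log2 change 7.33, trend-removed value 6.68). Ligands of the FGF, EGF, PDGF, VEGF and IGF type gave 8 higher and 6 lower of 21, and all 6 that fell did so at least 4-fold. Angpt2, an angiopoietin, had 0.376, 0.118 and 1.39 CPM at day 8 and 141, 144 and 132 CPM in undifferentiated cells (-7.88 ± 0.36; -7.29 without the naloxone and -9.12 without the DAMGO library of day 8). Kitl, the ligand of the receptor KIT, fell to 5.83, 3.2 and 4.51 CPM at day 8, against 178, 168 and 163 CPM in undifferentiated cells (-5.30 ± 0.50). Csf1, the growth factor of microglia and macrophages, went the other way, with 416, 487 and 411 CPM at day 8 and 17.3, 14.9 and 15.2 CPM in undifferentiated cells (4.79 ± 0.10; adjusted p = 9.50e-11, edgeR). Of 14 neurotrophins and cytokines 7 were higher and 5 lower. Cntf, a survival factor made by astrocytes and Schwann cells, had 272, 226 and 304 CPM at day 8 and 5.08, 3.64 and 4.41 CPM in undifferentiated cells, after 0.734 CPM at day 2. Schwann cell markers are given with it, since 2 of 5 were tested and both were higher, with a list sum of 38.3 to 46.1 CPM at day 8 and 3 to 3.46 CPM in undifferentiated cells and no count of Foxd3 at day 8. Most of that sum was Sox10, also on the oligodendrocyte precursor list. Sox10 had 38, 39.7 and 32.6 CPM at day 8 and 2.24, 2.08 and 2.11 CPM in undifferentiated cells (log2 change 4.09, trend-removed value 3.36). The Schwann cell markers Ngfr and Pmp2 stayed below 1 CPM at day 8. The part of Schwann cells in the result was not tested.

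Among the IGF-binding proteins, which hold insulin-like growth factors in the medium, and the related CCN proteins, 6 of 9 were higher and 3 lower, and every fall and 5 of the rises were at least 4-fold. Igfbp5 had 4630, 5327 and 5124 CPM at day 8 and 64, 66.8 and 92.9 CPM in undifferentiated cells (6.08 ± 0.13). Igfbp2 had 32.2, 40.3 and 28.3 CPM at day 8 and 445, 478 and 518 CPM in undifferentiated cells (-3.85 ± 0.16, trend-removed value -4.64). Igfbp3 had 53, 71.2 and 54.6 CPM at day 8 and 591, 672 and 590 CPM in undifferentiated cells (-3.38 ± 0.09). Per length the leading member was thus Igfbp5 at day 8, with 1424 TPM, and Igfbp2 in undifferentiated cells, with 812 TPM. Ccn1, an inducible matrix protein, had 169, 230 and 170 CPM at day 8 and 4.88, 7.29 and 6.52 CPM in undifferentiated cells. Of 16 neuropeptide and granin genes 10 were higher and 5 lower. Scg3, a granin of secretory vesicles, had 396, 347 and 433 CPM at day 8 and 32.5, 31.6 and 35.1 CPM in undifferentiated cells, while Apln, the ligand apelin, fell to 6.58, 6.39 and 7.46 CPM at day 8, against 82.7, 80 and 78.4 CPM in undifferentiated cells.

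Matrix genes moved both ways. Collagens were higher for 14 of 23 and lower for 2. Col9a2, of a fibril-associated collagen, had 31.4, 32.6 and 30.5 CPM at day 8 and 0.407, 0.521 and 0.352 CPM in undifferentiated cells (6.14 ± 0.22, trend-removed value 5.37). Col18a1, a basement membrane collagen, fell to 1.13, 1.07 and 0.52 CPM at day 8, against 37.4, 38 and 40 CPM in undifferentiated cells (-5.36 ± 0.20, trend-removed value -5.98). Metalloproteases leaned the other way, with 9 of 27 higher and 18 lower. Adamts14, a protease that trims procollagens, had 0, 0.118 and 0.347 CPM at day 8 and 13.2, 16 and 13.6 CPM in undifferentiated cells; the ratio of undifferentiated over day 8 was 93.1 (95% counting interval 31.5 to 455). Adamts15, which cleaves proteoglycans, had 12.4, 16 and 11.1 CPM at day 8 and 0.203, 1.04 and 0.529 CPM in undifferentiated cells (4.42 ± 0.31). Fbln2, the matrix protein fibulin 2, fell to 0.376, 0.592 and 0.347 CPM at day 8, against 116, 127 and 124 CPM in undifferentiated cells (-7.99 ± 0.25, trend-removed value -8.71). Fbn2, a fibrillin, had 10.5, 8.64 and 8.33 CPM at day 8 and 412, 428 and 416 CPM in undifferentiated cells. Fmod, a small proteoglycan that binds collagen, had 56.8, 97.2 and 69.2 CPM at day 8 and 0, 0 and 0.176 CPM in undifferentiated cells, a ratio of 1275 (95% counting interval 228 to 50385). Prelp, of the same leucine-rich kind, had 202, 286 and 204 CPM at day 8 and 0.61, 1.74 and 2.47 CPM in undifferentiated cells. The proteoglycan Vcan fell to 35.9, 18.4 and 33.7 CPM at day 8, against 127, 106 and 128 CPM in undifferentiated cells (-2.09 ± 0.35, trend-removed value -1.30), and it had averaged 251 CPM at day 4. Thbs1, a thrombospondin that promotes synapses when released by astrocytes, had 213, 319 and 207 CPM at day 8 and 2.24, 1.56 and 4.05 CPM in undifferentiated cells (6.53 ± 0.29). Lgi4, a secreted protein needed for peripheral myelin, had 115, 108 and 116 CPM at day 8 and no count in undifferentiated cells, at least 611-fold higher.

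Genes that were near absent on one side were counted as those with at most 3 counts over the group and a mean of at least 10 CPM in the other. Such genes seen only at day 8 numbered 67 of all 13144 tested (0.51%), and those seen only in undifferentiated cells numbered 19 (0.145%). By class the day 8 genes were 10 of 305 transporters (3.28%), 6 of 280 secreted proteins (2.14%), 4 of 306 receptors (1.31%), 1 of 410 transcription factors (0.244%) and none of 125 ion channels. The transporters were Abca8a, Fxyd1, Fxyd3, Panx2, Slc14a1, Slc22a4, Slc24a4, Slc2a4, Slc6a19 and Slco1a5. The only class member on the other side was Adamts14. In 45 of the 54 families at least 1 member rose and at least 1 fell by 4-fold or more, so opposite movement inside a family was common and marks no family out.

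The stage at which these changes appeared was described for the genes called and at least 4-fold, by the first stage at which 50% of the change seen at day 8 was covered on the scale of log2(mean CPM + 0.5). Of the 1553 falls over all genes 80.2% had covered that share by day 2, as had 81.5% of 27 transporters, 77.3% of 22 channels, 69.2% of 52 transcription factors, 62.5% of 40 receptors and 51% of 49 secreted proteins. Early cover did not always last. The median share covered by all falls was 67.3% at day 2 and 46.4% at day 4. Among the classes it dropped only for transcription factors, from 60.5% to 52.5%. Day 2 means could also pool unlike libraries: Trpm7 had 105, 19.3 and 32.1 CPM at day 2 and averaged 142 CPM at day 4. Of the 1468 rises over all genes 43.3% had covered it by day 2, 21.9% by day 4 and 34.9% only at day 8. The day 8 share was 43.8% of 73 transporters, 43.1% of 102 secreted proteins, 36% of 50 transcription factors, 30.7% of 75 receptors and 23.8% of 21 channels. These shares depend on the scale: in linear CPM, where a change at an even log rate passes the mark early if it is a fall and late if it is a rise, the day 2 share was 92.9% of all falls and 23.2% of all rises, and the day 8 share of all rises was 60.8%. No test was made between falls and rises or between classes. Levels at day 4 were at least 2-fold above those at day 8 for 51 of all rises, 4 of them receptors, Gpr149 and Gpr17 among these. Gpr17, a receptor of committed oligodendrocyte precursors on the list that split above, averaged 613 CPM at day 2 and 1190 CPM at day 4, and had 490, 518 and 441 CPM at day 8, against 5.69, 5.9 and 8.28 CPM in undifferentiated cells. The day 2 and day 4 values share the undifferentiated and day 8 libraries with the comparison and are given as a description.

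**Figure D4:**
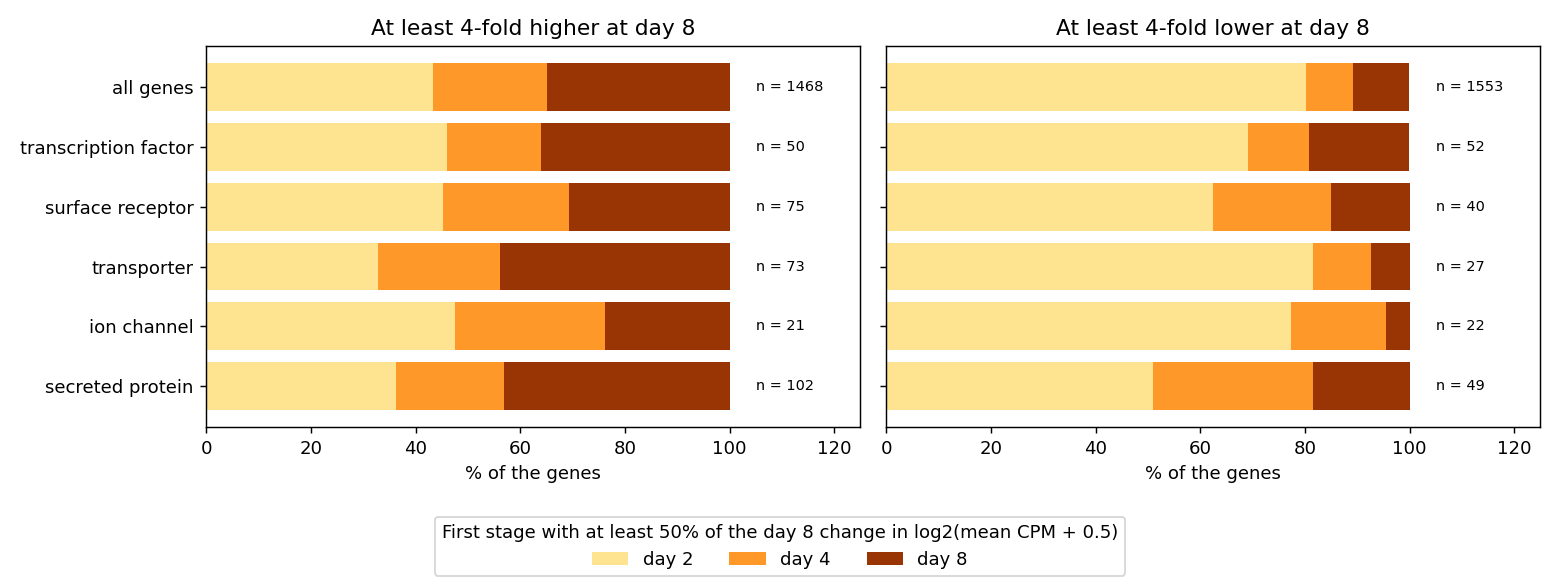
Share of genes (horizontal axis, %) by the first stage that covered at least 50% of the day 8 change in log2(mean CPM + 0.5), for genes called and at least 4-fold higher (left panel) or lower (right panel), over all genes and by class. Day 2 takes 80.2% of the falls and 43.3% of the rises over all genes, and day 8 takes 34.9% of the rises. A gene stays at its first such stage even where its level moved back at day 4.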

How the data were processed

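RNA from NSC was sequenced in 14 libraries (TruSeq kit, total RNA, per the labels' protocols). Per the submitters' processing notes reads were processed with Bowtie and RSEM on mm10; the sources used here give no settings, versions or strand. Each deposited table lists 29713 genes with their expected count, TPM and FPKM, per its header. As RSEM estimates, the expected counts of the authors need not be whole and were rounded. The deposited TPM values served for levels between genes. The FPKM values of the authors were not used in a test. RSEM divides reads among related genes, so values of close paralogues depend on that step.

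Symbols, GC content and length came from GENCODE M21 of the same build for 29202 identifiers. Genes were placed in classes by symbol patterns, and 84 symbols whose role does not match their pattern were left out. The classes, families, lists and comparison were chosen with earlier results of these data known. Named genes follow a rule: per class the 6 largest rises and 6 largest falls called with 10 CPM or more on average in the higher group and 1 direction in all 3 treatment-matched pairs, the 4 highest day 8 TPM means, and per family up to 2 each way. Not every gene so chosen is reported here. E2f3, E2f4, E2f5, Foxm1, Serpine2 and the genes near absent in 1 group were named after their values were seen, where the rule did not hold them.

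edgeR 4.0.16 (R 4.3.3) fitted quasi-likelihood models with TMM normalization and filterByExpr to the 12 libraries of 4 stages and 3 treatments, with an additive treatment block and 6 residual degrees of freedom. Since each condition has 1 library, drug effects that vary by stage add to the spread. Adjusted p-values are Benjamini-Hochberg over all 13144 genes tested. Values given as log2 change are fitted, with their SE; bounds use a floor of 3 counts over a group, and ratios from 1 to 3 counts carry a 95% interval of counting error. Alternatives were DESeq2 1.42.0, limma 3.58.1 (voom, and log2 TPM with a pseudocount of 1 or 0.1), other scalings, no filter, the 6 libraries alone, no block, an added passage 8 library, a test against 2-fold, removing a GC content and length trend (mgcv 1.9.3), and each of the 6 libraries left out. The log2 scale for the stage of a change was chosen after seeing the data. The scripts were tested on simulated counts before use.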

Additional observations from a re-analysis of the deposited data

How the results depend on the processing

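Under the alternatives tried no named gene changed the sign of its log2 change. Family counts were not part of this check, and the lean of some turned with the trend removed. Sox factors went from 7 higher and 2 lower to 4 and 7, and forkhead factors from 7 and 4 to 4 and 7. The bZIP factors went from 21 and 14 to 14 and 19, and the SMAD, GLI, ZIC and TCF/LEF group from 11 and 7 to 6 and 9. The test against a 2-fold change moved 9 counts by over 1.5 times, by construction: 2495 genes higher and 2452 lower over all genes, 76 transcription factors higher and 88 lower, 61 receptors lower, 105 transporters higher and 42 lower, and 30 ion channels higher and 29 lower. The other 207 counts stayed within 1.5 times. The treatment names mark a shared drug, and the labels do not say whether same-treatment libraries share a culture; the deviations of same-treatment libraries from their group means correlated at 0.0713 for NC, 0.00255 for naloxone and -0.0164 for DAMGO. Without the treatment block 5501 genes were higher and 5067 lower, against 5470 and 5062 with it, so the pairing changed little in the counts. The 6 libraries alone gave 5282 and 5095 calls with 2 residual degrees of freedom. Leaving out each of the 6 libraries gave 10010 to 10329 calls in all, with 5238 to 5379 higher and 4772 to 4950 lower. Scaling by TPM gave 4373 higher and 5671 lower, and the trend on GC content and length 4765 and 5523. For named genes 3969 of the recomputed values kept direction and call, 55 lost the call and 8 gained it. Depth limits genes near the filter, and 2957 class genes in the files held 1426 that could be tested.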
